A study of Mus musculus with 4 samples.

Results

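Areg, 1 of the 31053 genes in the count tables, was followed across single CD4 T cells of tumor-bearing and normal mouse lung. The gene encodes amphiregulin, a ligand of the EGF receptor. Cells were divided by UMIs (counts of distinct captured molecules) of Foxp3, the lineage factor of regulatory T (Treg) cells, and then of Ccr7, Klrg1 and Il1rl1. A cell with at least 1 Foxp3 UMI is called Foxp3+ here, and one with none Foxp3-negative, which does not show that it lacked the transcript. Areg itself was used in none of these divisions.

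The study set the lungs of C57BL/6 mice given TC1 tumor cells through the tail vein, taken 3 weeks later, beside the lungs of age-matched normal mice. Live CD4+ T cells were sorted, and from each of the 2 suspensions 5' transcripts and receptor chains were sequenced as separate libraries. With 1 library per tissue there was no replicate check and no test, and any batch difference cannot be told apart from the tissue. The number of mice behind a suspension is not in the labels, and single mice cannot be told apart. The cells came from whole digested lung, and in the tumor-bearing mice tumor nodules and the lung around them were not separated in the labels.

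The tumor library kept 7135 cells with a median of 4173 UMIs, and the normal library 7082 cells with a median of 3906 UMIs. The sort was visible in the counts, since Cd3e had a UMI in 97.3% of tumor cells and 96.8% of normal cells, and Cd4 in 58.0% and 55.5%. Of the kept cells, 74 had a barcode that occurs in both libraries. Intervals below are 95% intervals of counting error only. They treat the UMIs of 1 cell as independent and so are too narrow where a few cells hold most of the Areg.

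Amphiregulin is made as a membrane-anchored precursor that the protease ADAM17 releases, and the freed ligand acts on the EGF receptor of epithelial and stromal cells. In lung it is known as a repair factor that Treg cells and group 2 innate lymphoid cells make in response to the alarmins IL-33 and IL-18. Il1rl1 encodes ST2, the IL-33 receptor, Klrg1 a lectin-like receptor of differentiated effector cells, and Ccr7 the chemokine receptor that keeps naive and central cells in lymphoid tissue.

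Areg (ENSMUSG00000029378) lies on the plus strand of chromosome 5, from 91139599 to 91148432 in GRCm38.p6, the assembly also called mm10. The 250 bases before its start, chr5:91139349-91139598 on the plus strand in RefSeq's sequence of that build, are shown because genes of the cyclic AMP response were among the gene groups followed below. Capitals mark the palindromic cyclic AMP response element TGACGTCA, which lies 61 to 54 bases before the start, and the TATA box letters TATAAA, which lie 31 to 26 bases before it.
Areg: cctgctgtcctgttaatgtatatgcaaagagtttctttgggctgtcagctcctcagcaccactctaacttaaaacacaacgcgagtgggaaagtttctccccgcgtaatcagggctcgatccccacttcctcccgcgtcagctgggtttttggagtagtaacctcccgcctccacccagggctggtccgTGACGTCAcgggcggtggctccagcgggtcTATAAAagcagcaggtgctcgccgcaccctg
Searched on both strands, TGACGTCA occurred in 1.55% and TATAAA in 12.4% of 32851 promoters, each read over the same window. The AP-1 letters TGANTCA, which occurred in 6.75% of them, were not found in this window of Areg. The matches describe letters only and show no binding.

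Areg was far more abundant in the tumor library. It had 2756 UMIs in 552 cells (86.3 CPM, the class's Areg UMIs scaled to a fixed total of UMIs, interval 83.1 to 89.6) in tumor lung and 439 UMIs in 171 cells (15.6 CPM, 14.2 to 17.2) in normal lung, a ratio of 5.52 (4.99 to 6.12). Most of it lay in Foxp3+ cells in tumor lung, where 1147 such cells, 16.1% of the library, held 84.0% of its Areg UMIs. In normal lung 206 Foxp3+ cells, 2.91% of the library, held 41.0%. Foxp3+ cells contributed 19.3% of all UMIs in tumor lung and 3.20% in normal lung. With the tumor levels of both classes at the normal library's shares, Areg would have stood at 28.6 CPM, 1.83 times normal. With the normal levels at the tumor shares it would have stood at 46.3 CPM, 2.96 times normal.

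Within Foxp3+ cells the Areg level was 376 CPM (361 to 392) in tumor lung and 200 CPM (172 to 231) in normal lung, a ratio of 1.88 (1.61 to 2.20). An Areg UMI was found in 34.6% of tumor and 22.3% of normal Foxp3+ cells, whose median depths were 4725 and 3995.5 UMIs. With each cell thinned to 2417 UMIs, which left out 68 and 13 shallower cells, the shares were 26.3% and 20.2%. Their intervals, 23.7% to 29.1% and 14.8% to 26.6%, overlapped. Cells with a Ccr7 UMI and no Foxp3 UMI, taken as mostly naive cells that should make little Areg, were used as the background. Their level was 7.19 CPM in tumor and 7.44 CPM in normal lung (ratio 0.967, 0.775 to 1.20), with an Areg UMI in 1.63% and 1.57% of cells at median depths of 4176 and 3939 UMIs. Single cells of this class held up to 15 Areg UMIs in tumor and 18 in normal lung. It is thus a level for comparison and not a measure of stray transcript. The shares in Foxp3+ cells were above this background in both libraries.

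**Figure D1:**
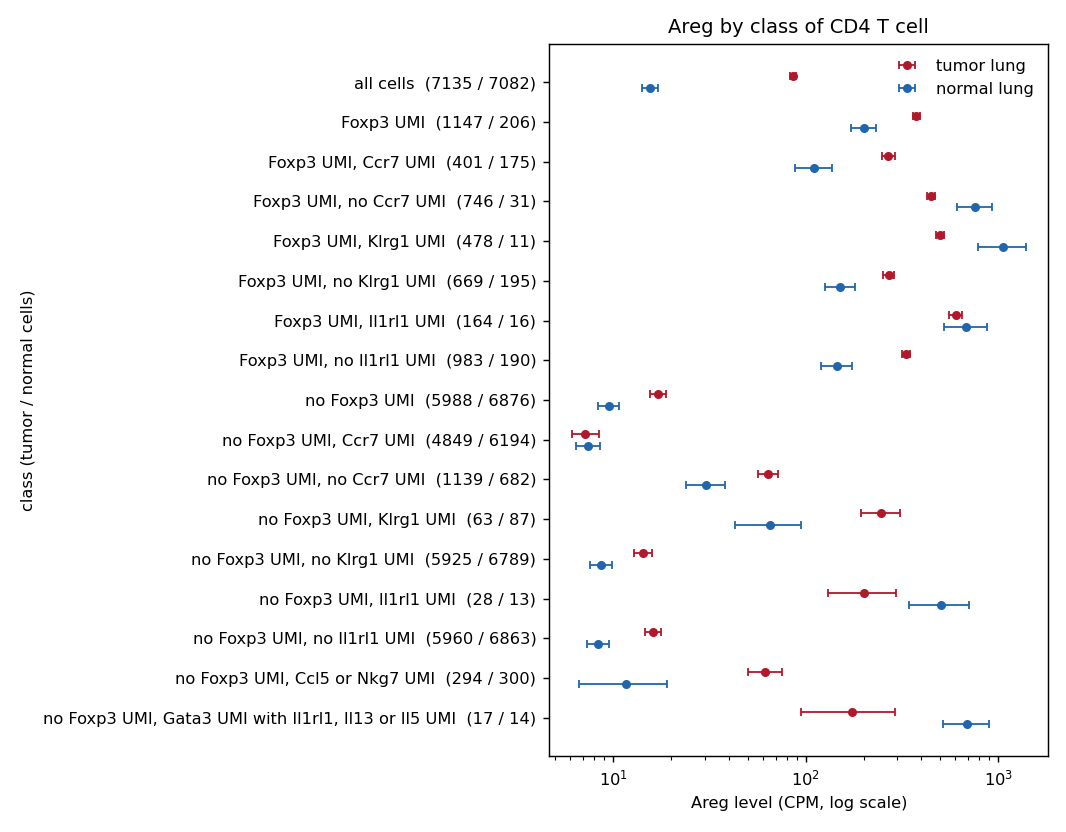
Areg level in CPM (log axis) in each class of CD4 T cell in tumor and normal lung. Points are class totals of 1 library each, bars are exact 95% Poisson intervals, and cell numbers stand beside each class. Foxp3+ classes lie to the right of most Foxp3-negative classes, and the background class with Ccr7 UMIs stands at 7.19 and 7.44 CPM.

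The tissue ratio differed between cells with 1 and with more Foxp3 UMIs, a split added after the values were seen. In tumor lung, cells with exactly 1 Foxp3 UMI held 277 CPM of Areg (251 cells) and those with 2 or more held 397 CPM (896 cells). In normal lung the levels were 27.4 CPM (82 cells, 9 Areg UMIs in all) and 299 CPM (124 cells). Cells with 1 Foxp3 UMI thus stood nearer to their library's other Foxp3+ cells in tumor lung and nearer to the background in normal lung. The tumor to normal ratio was 10.1 (5.26 to 22.3) at 1 Foxp3 UMI and 1.33 (1.13 to 1.56) at 2 or more. The share of cells with an Areg UMI at 2 or more Foxp3 UMIs was 36.9% in tumor lung and 30.6% in normal lung, with overlapping intervals. The median depths of these cells were 4948 UMIs in tumor lung and 3985.5 UMIs in normal lung. With each cell thinned as above, the shares were 27.7% and 28.2%. The higher tumor share was thus not seen at equal depth.

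Within Foxp3+ cells, Areg stood higher with Klrg1 or Il1rl1 UMIs than without them, and lower with Ccr7 UMIs than without, in both libraries. In tumor lung the 478 Klrg1+ cells held 500 CPM and the 669 cells without Klrg1 held 270 CPM, a ratio of 1.85 (1.70 to 2.01). In normal lung the 11 Klrg1+ cells held 1059 CPM and the other 195 held 151 CPM, a ratio of 6.99 (4.95 to 9.74). The 164 Il1rl1+ tumor cells held 603 CPM against 333 CPM without Il1rl1, a ratio of 1.81 (1.64 to 1.99). The 16 Il1rl1+ normal cells held 681 CPM against 145 CPM, a ratio of 4.70 (3.41 to 6.44). For Ccr7 the order was the other way around. Tumor cells with Ccr7 held 269 CPM against 447 CPM without it, a ratio of 0.601 (0.548 to 0.658). Normal cells with Ccr7 held 111 CPM against 759 CPM, a ratio of 0.146 (0.108 to 0.198). All 3 divisions had the same order in both libraries and were wider in normal lung.

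An Areg UMI was found in 45.8% of Klrg1+ and 26.6% of Klrg1-negative tumor Foxp3+ cells, with median depths of 5259.5 and 4396 UMIs. Thinned, the shares were 34.3% and 20.2%. In normal lung 9 of 11 Klrg1+ cells had an Areg UMI (81.8%, 48.2% to 97.7%), against 19.0% of the others. Il1rl1+ cells had one in 52.4% of 164 tumor cells and in 11 of 16 normal cells.

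The tumor to normal ratio was above 1 in Foxp3+ cells with Ccr7, without Klrg1 or without Il1rl1, and below 1 in those without Ccr7 or with Klrg1. In Foxp3+ cells with Ccr7 it was 2.43 (1.94 to 3.07), from 401 tumor and 175 normal cells. In those without Ccr7 it was 0.589 (0.478 to 0.733), from 746 tumor cells but only 31 normal cells, and an Areg UMI was found in 36.6% and 54.8% of them. With Klrg1 it was 0.472 (0.357 to 0.637), and without Klrg1 it was 1.79 (1.48 to 2.16). With Il1rl1 the ratio was 0.884 and its interval, 0.681 to 1.17, included 1. Without Il1rl1 it was 2.30 (1.91 to 2.80). The normal values with Klrg1, with Il1rl1 or without Ccr7 rest on few cells, of which 5 held 86.3%, 81.0% and 71.3% of the Areg UMIs. Whether these ratios differ between divisions was not tested.

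**Figure D2:**
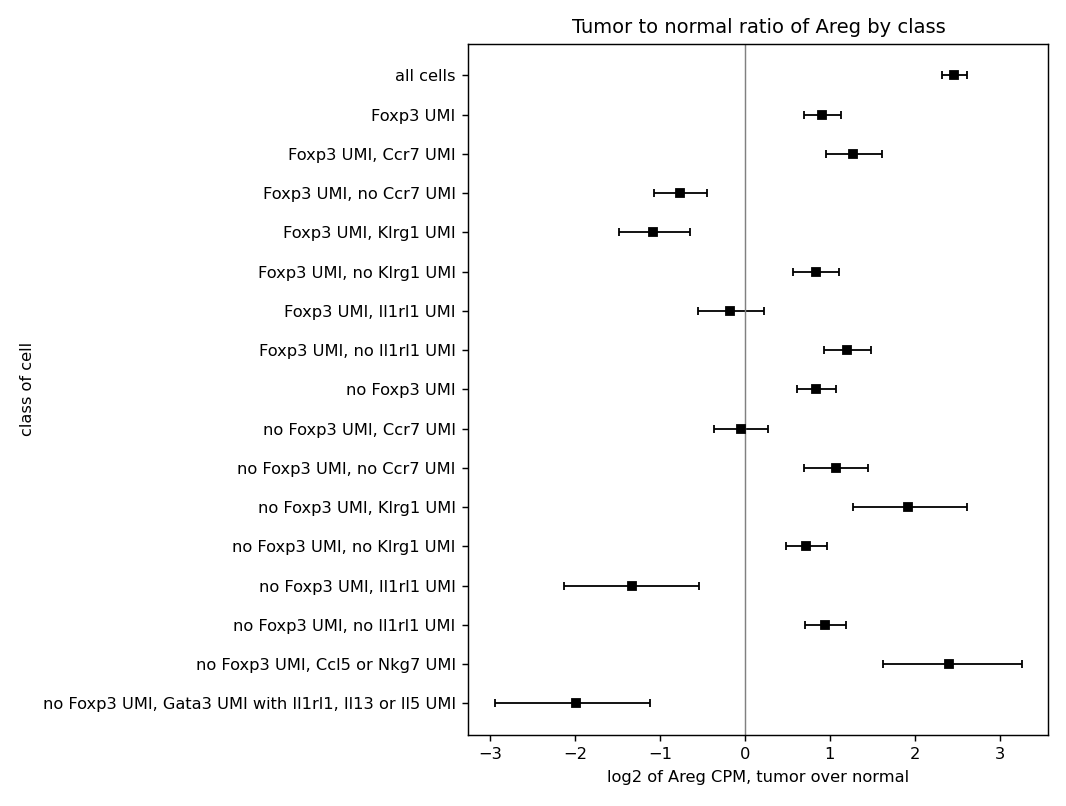
The log2 ratio of Areg CPM in tumor over normal lung in each class, with 95% intervals conditional on the total count. Foxp3+ cells with Ccr7 UMIs lie right of 0 (ratio 2.43) and those without lie left of it (0.589). Klrg1-negative cells lie right of 0 (1.79) and Klrg1+ cells left of it (0.472).

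The makeup of the Foxp3+ cells differed between the libraries along the same genes. Cells with Ccr7 and neither Klrg1 nor Il1rl1 were 82.0% of normal and 22.7% of tumor Foxp3+ cells, and their Areg level was 84.7 CPM and 144 CPM. Cells with none of the 3 genes were 8.25% and 30.4%, at 741 CPM (17 cells) and 371 CPM (349 cells). Cells with Klrg1, no Ccr7 and no Il1rl1 were 1.46% and 25.0%, at 358 CPM (3 cells) and 450 CPM (287 cells). Cells with Klrg1 and Il1rl1 but no Ccr7 were 3.4% and 6.54%, at 1257 CPM (7 cells) and 715 CPM (75 cells), among the highest levels in either library. With the strata held at the shares of both libraries pooled, tumor Areg stood at 341 CPM and normal Areg at 516 CPM, a ratio of 0.660. With the normal library's shares the values were 197 CPM and 200 CPM, a ratio of 0.984. The unadjusted ratio was 1.88. The standardized ratios have no interval, and the normal levels of 6 of the strata rest on between 1 and 17 cells. Of the 8 strata 7 were used, and the 29 tumor cells of the stratum with no normal cell were left out.

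Areg was uneven from cell to cell. In tumor lung 65.4% of Foxp3+ cells had no Areg UMI, and 74 cells (6.45%) with 10 or more UMIs held 59.4% of the class total. The highest cell had 64 UMIs. In normal lung 77.7% had none, and 6 cells with 10 or more UMIs held 45.6%, up to 20 UMIs in 1 cell. Depth did not separate these cells much in tumor lung, since the median was 5297.5 UMIs at 10 or more Areg UMIs and 4566.5 UMIs at none.

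**Figure D3:**
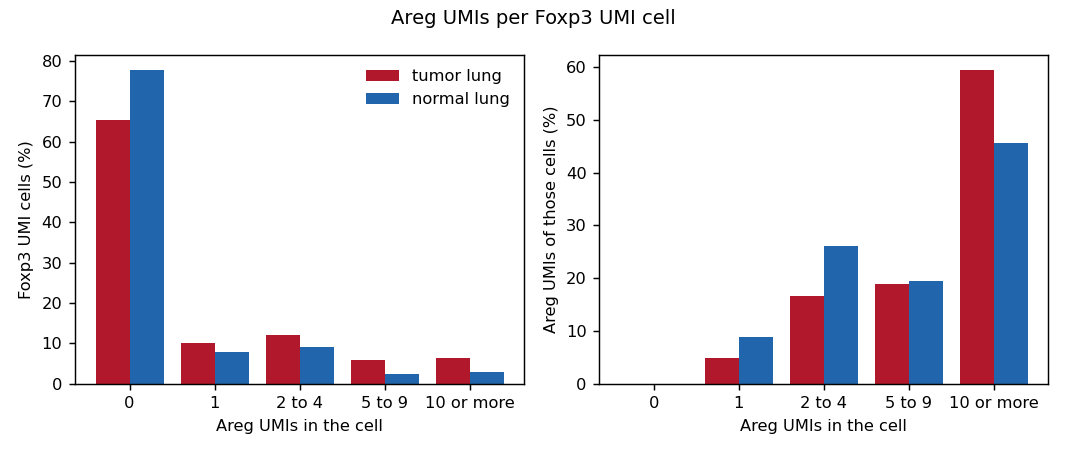
Foxp3+ cells grouped by their number of Areg UMIs, as a percentage of cells (left) and as a percentage of the Areg UMIs those cells held (right), for 1147 tumor and 206 normal cells. The cells with 10 or more UMIs are a small share of cells, 6.45% in tumor lung, and the largest share of Areg UMIs, 59.4%.

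The level of Foxp3 itself did not follow Areg in tumor lung. It was 788 CPM in cells with no Areg UMI, 789 CPM at 1, 766 CPM at 2 to 4 and 797 CPM at 5 or more. Klrg1 was higher at each step, at 241, 260, 377 and 543 CPM, and Il1rl1 too, at 32.7, 40.2, 63.3 and 73.2 CPM. Klf2, a factor that maintains the recirculating state, was lower at each step, at 322, 215, 152 and 131 CPM. Ccr7 stood at 465, 458, 405 and 371 CPM. In normal lung the spans were wider, on 160, 16, 19 and 11 cells. Foxp3 stood at 524, 561, 785 and 616 CPM there. Klrg1 went from 7.45 to 375 CPM between the first and last of these groups, Ccr7 from 1904 to 345 CPM, and S100a4, a calcium-binding protein of effector and memory cells, from 71.5 to 736 CPM. In tumor lung S100a4 went from 277 to 412 CPM.

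**Figure D4:**
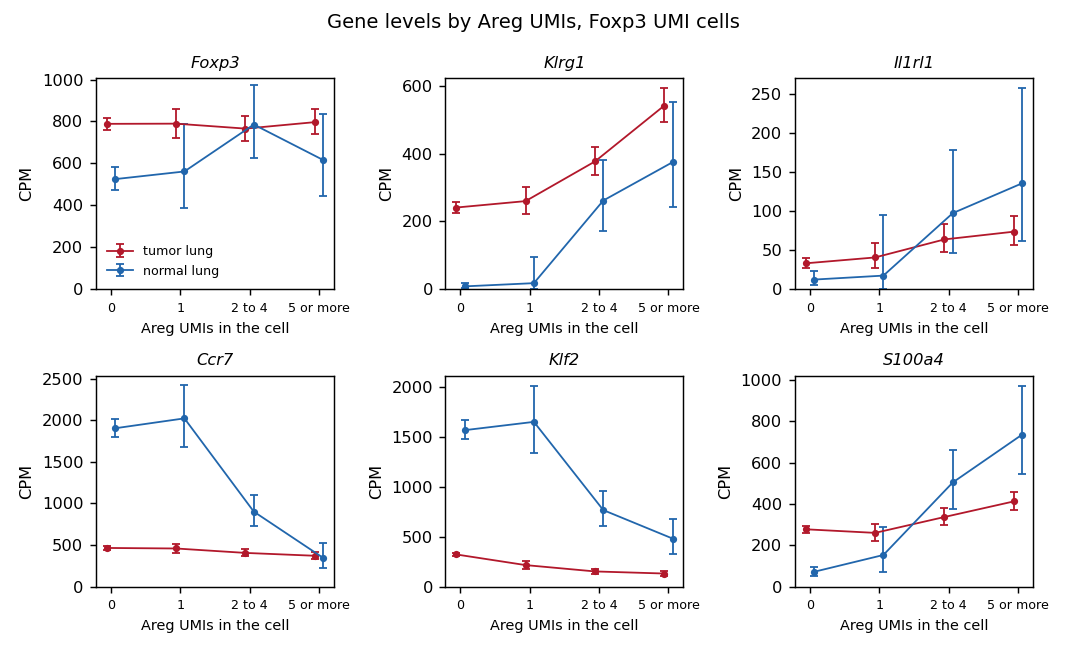
Levels in CPM of 6 genes in Foxp3+ cells grouped by their Areg UMIs, with exact 95% Poisson intervals. Foxp3 is level in tumor lung (788 to 797 CPM from the first to the last group), and in both libraries Klrg1 and Il1rl1 lie higher, and Klf2 lower, in the last group than in the first.

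Across the 1147 tumor Foxp3+ cells, the genes most correlated with Areg were weak correlates, and weak values in sparse counts are a description only. Pearson r was taken on log-scaled UMIs per 10000 and reached at most 0.255 among 7339 genes, of which 1.69% had r of at least 0.1. The cells share a library and a range of depths, and r between Areg and depth was 0.06. The 15 highest were Gadd45b (0.25), Nfkbia (0.23), Tnfrsf4 (0.23), Zfp36l1 (0.22), Nfkbiz (0.22), Cd83 (0.22), Cd74 (0.22), Klrg1 (0.22), Ifrd1 (0.21), Bhlhe40 (0.21), Fam110a (0.20), Nfkbid (0.20), Traf1 (0.20), Pim1 (0.19) and Ccrl2 (0.19). In the 206 normal Foxp3+ cells, which played no part in choosing them, all 15 had r of at least 0.1, where 20% of all genes did.

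Gadd45b, a stress-inducible growth arrest protein, stood at 898 CPM in tumor Foxp3+ cells with an Areg UMI and 556 CPM in those without, a fold of 1.61 (1.52 to 1.72). The corresponding normal values were 236 and 106 CPM. Nfkbia, the NF-kB inhibitor that NF-kB itself induces, stood at 3784 and 3019 CPM in tumor lung. Nfkbid and Nfkbiz encode nuclear regulators of the same family, and Traf1 an adaptor of TNF receptors. Nfkbid stood at 254 and 147 CPM and Nfkbiz at 520 and 361 CPM. Tnfrsf4, which encodes the costimulatory receptor OX40, stood at 1908 and 1327 CPM in tumor lung and at 696 and 328 CPM in normal lung. Cd83, an activation marker, stood at 406 and 208 CPM in tumor lung and at 227 and 61.1 CPM in normal lung. Bhlhe40, a transcription factor of tissue and effector T cells, stood at 1133 and 802 CPM in tumor lung and at 381 and 103 CPM in normal lung. In normal lung Nfkbiz stood at 328 and 124 CPM, and Nfkbid at 83.1 and 64.1 CPM on 19 and 43 UMIs. The folds of Gadd45b, Tnfrsf4, Cd83, Bhlhe40 and Nfkbiz were smaller in tumor than in normal lung. The intervals of Gadd45b, 1.52 to 1.72 and 1.54 to 3.23, overlapped. The fold of Nfkbid was larger in tumor lung, at 1.73 (1.54 to 1.94) against 1.30 (0.714 to 2.28), also with overlapping intervals. Those of Nfkbia (1.25 and 1.26) and Traf1 (1.40 and 1.39) were close.

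The 5 lowest r in tumor lung belonged to S1pr1 (-0.14), Klf2 (-0.14), Tsc22d3 (-0.13), Hmgn1 (-0.12) and Nsg2 (-0.11), and all 5 were negative in normal lung, where 41.9% of all genes were. There S1pr1 (-0.056) and Hmgn1 (-0.029) were close to 0. S1pr1, the receptor that lets T cells leave tissue and lymph nodes, stood at 94.5 CPM with an Areg UMI and 160 CPM without it in tumor lung. Klf2 stood at 161 and 322 CPM. Tsc22d3, a glucocorticoid-induced gene, stood at 302 and 436 CPM.

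The normal library had its own highest correlates, which were looked up after its values were seen. S100a4 (r 0.61), S100a6 (0.56), S100a11 (0.50) and Rora (0.47), a transcription factor of type 2 and tissue lymphocytes, led there, with r of 0.08, 0.12, 0.15 and 0.13 in tumor lung. Itgb1 (0.44) and Ahnak (0.44) had r of 0.0046 and 0.013 in tumor lung. Rora stood at 442 CPM with an Areg UMI and 83.4 CPM without it in normal lung, and at 458 and 371 CPM in tumor lung. The difference was thus larger in normal lung, where the cells without Areg held little Rora.

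**Figure D5:**
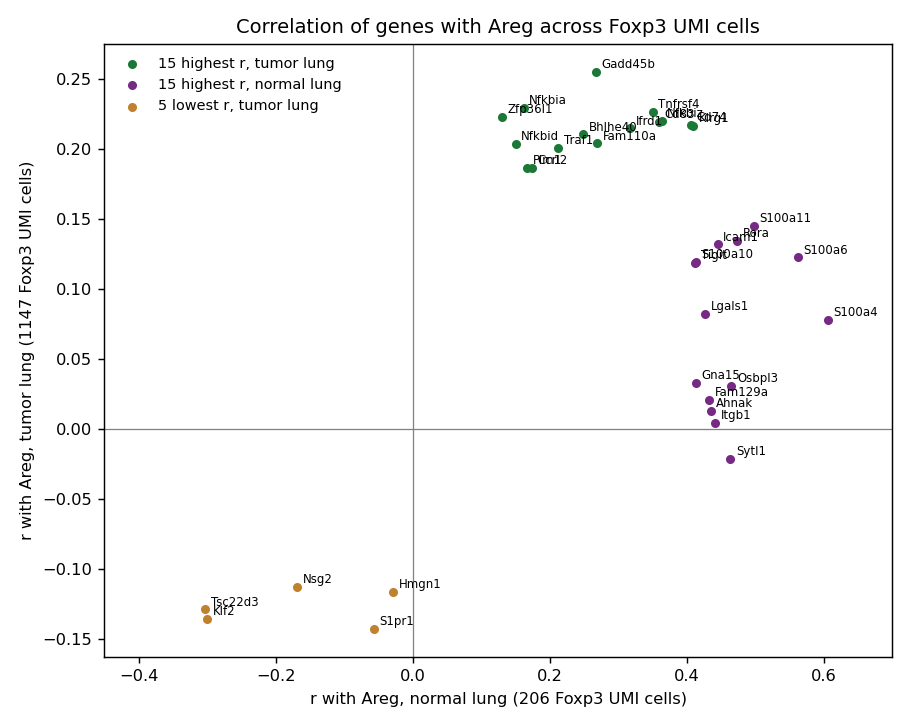
Pearson r of single genes with Areg across Foxp3+ cells, tumor lung (1147 cells) against normal lung (206 cells). Klrg1, among the highest in both libraries, is drawn with the tumor genes. The 15 genes highest in tumor lung all lie at or above 0.1 in both libraries, whereas some genes highest in normal lung, such as Itgb1 and Ahnak, lie near 0 in tumor lung.

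Gene groups were described by how many members were at least 1.5-fold higher or lower in Foxp3+ cells with an Areg UMI than in those without. Genes were counted when their pooled level would give 20 UMIs in the smaller group of cells. In tumor lung 1.44% of 7712 genes were higher and 3.29% lower. Among the 12 genes of naive cells and homing to lymph nodes, 7 were lower and none higher, among them Bach2 (12.7 and 33.0 CPM), Igfbp4 (62.4 and 158 CPM) and Ly6c1 (18.1 and 53.8 CPM). From the list of tissue Treg cells and the IL-33 response 2 of 18 were higher, Klrg1 and Il1rl1, and the list's median log2 difference was 0.34 against -0.02 over all genes counted. Of 13 T cell receptor activation genes 2 were higher, Cd83 and Nfkbid, and the list's median log2 difference was 0.28. Of 10 Treg identity genes none was higher and Gpr83, an orphan receptor of resting Treg cells, was lower at 7.17 and 17.2 CPM. The median log2 difference of that list was 0.24, below the fold but above the median of all genes counted. Tnfrsf18 on it stood at 1422 and 1120 CPM. Of 16 genes of the cyclic AMP and prostaglandin response none passed the fold in either direction, with Crem, an inducible repressor of cyclic AMP targets, at 280 and 243 CPM. Nr4a1, the highest correlate on this list (r 0.17), stood at 1245 and 971 CPM. None of 18 immediate early and dissociation stress genes passed it either. Fos stood at 523 and 595 CPM and Jun at 183 and 270 CPM. Of 13 interferon response genes 1 was higher (Ifitm3, 137 and 79.7 CPM) and 1 lower (Usp18, 59.5 and 90.3 CPM). By correlation, r was at least 0.1 for 1.69% of all genes. It was so for 8 of 18 tissue Treg, 8 of 13 activation and 6 of 9 Treg identity genes. The same held for 4 of 18 immediate early genes, Nfkbia (0.23) highest, 1 of 16 cyclic AMP genes and 0 of 13 interferon genes. None of these 6 lists had a member with r of -0.1 or below.

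In normal lung, with 46 cells with and 160 without Areg, 17% of 1449 genes were higher and 6.9% lower. All 6 tissue Treg genes counted were higher, among them Batf, a factor of effector Treg differentiation (206 and 83.4 CPM), and Gata3, the type 2 lineage factor (219 and 109 CPM). Of 8 Treg identity genes 5 were higher, and Ikzf2, which encodes the Treg factor Helios, stood at 560 and 194 CPM. Of 12 naive genes 8 were lower, with Igfbp4 at 39.4 and 436 CPM. Klrg1 was too rare to be counted there, at 53 UMIs in the cells with Areg and 5 in those without. Of 16 immediate early genes none was higher and 2 were lower.

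Between the libraries, several gene groups of Foxp3+ cells differed, here without regard to Areg. Of 9404 genes with 20 or more UMIs in 1 of the libraries, 29.1% were at least 1.5-fold higher and 8.79% lower in tumor lung. The tumor sum was deeper (6159263 against 899932 UMIs), so with that filter rare genes were counted mainly where they were higher in tumor lung. Counts below therefore use genes whose pooled level would give 20 UMIs in the smaller sum, a filter added after the values were seen, which left 5244 genes, 25% of them higher and 5.55% lower. Of 16 tissue Treg genes 15 were higher, with Ccr8, a chemokine receptor of tumor Treg cells, at 606 CPM in tumor and 50 CPM in normal lung, and Klrg1 at 305 and 64.4 CPM. Il1rl1 stood at 43.5 and 31.1 CPM (ratio 1.40, 0.946 to 2.14), within counting error. Of 13 T cell receptor activation genes 12 were higher, and of 12 interferon response genes 12. Of 12 naive genes 11 were lower. Of 16 cyclic AMP and prostaglandin genes 9 were higher. Ptger4, which encodes a prostaglandin E2 receptor, stood at 42.2 and 35.6 CPM. Of 17 immediate early genes 3 were higher and 1 lower, and none of 6 CD4 T cell identity genes passed the fold. Scaling by median of ratios would move every log2 difference by -0.13. With the first filter, that scaling gave 16 in place of 18 higher tissue Treg genes, 10 in place of 12 activation genes and 6 in place of 9 cyclic AMP genes.

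Foxp3-negative cells carried little Areg on average, 17.1 CPM (15.5 to 18.8) in 5988 tumor cells and 9.53 CPM (8.40 to 10.8) in 6876 normal cells. Foxp3+ cells exceeded them 22.0-fold (19.9 to 24.4) in tumor and 21.0-fold (17.3 to 25.5) in normal lung. An Areg UMI was found in 2.59% and 1.82% of Foxp3-negative cells. The level was 63.9 CPM without Ccr7 in tumor lung against 7.19 CPM with it, and 30.5 against 7.44 CPM in normal lung. Cells with a Klrg1 UMI held 246 CPM (63 cells) in tumor and 65.0 CPM (87 cells) in normal lung, where 3 cells held all 27 UMIs. Cells with an Il1rl1 UMI held 200 CPM (28 cells) and 502 CPM (13 cells). As in Foxp3+ cells, levels with Klrg1 or Il1rl1 stood above the rest in both libraries.

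Helper-type divisions of the Foxp3-negative cells differed in Areg. Cells with a Ccl5 or Nkg7 UMI, genes of cytotoxic and Th1-type cells, held 61.7 CPM in tumor lung (294 cells). In normal lung they held 11.7 CPM (300 cells), and the tumor to normal ratio was 5.28 (3.09 to 9.60). Ccl5 was not confined to such cells. It had a UMI in 44.6% of tumor Foxp3+ cells with Areg and 34.0% of those without. In normal lung these shares were 4.35% and 2.5%. Whether the tumor class held Treg cells whose Foxp3 was missed was not tested. Cells with Gata3 together with Il1rl1, Il13 or Il5, genes of Th2-type cells, held 174 CPM in tumor (17 cells) and 686 CPM in normal lung (14 cells), a ratio of 0.253 (0.130 to 0.462). The last value rests on 8 normal cells with an Areg UMI, 5 of which held 92.7% of it. In the whole tumor library Il13 had a UMI in 1 cell and Il5 in 2, so most of the 17 tumor cells entered by Il1rl1. Gata3 and Il1rl1 also had a UMI in 65.0% and 21.7% of tumor Foxp3+ cells with Areg. In the whole normal library Il13 had a UMI in 5 cells. The 2 sides may thus hold unlike cells, and whether the tumor cells were of Th2 type was not tested.

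Some Foxp3-negative cells with Areg carried other Treg genes. Among tumor Foxp3-negative cells an Ikzf2 UMI was found in 36.1% of the 155 with an Areg UMI and in 3.84% of the rest, and an Il2ra UMI, for the high-affinity IL-2 receptor, in 21.3% and 2.66%. In normal lung Ikzf2 was found in 17.6% of 125 and 2.03% of the rest. Median depths were 4244 and 4110 UMIs in tumor lung. The 280 Ikzf2+ Foxp3-negative tumor cells held 44.3% of that class's Areg UMIs, at 148 CPM, and the 159 normal ones held 22.4%, at 82.9 CPM. Cells that shared a receptor with a Foxp3+ cell held 416 CPM in tumor lung (26 cells, 9 with an Areg UMI). In normal lung 0 of 30 such cells had one, which allows a share of up to 10%.

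Foxp3-negative tumor cells with an Areg UMI were also set beside those without, with 12.4% of 3953 genes at least 1.5-fold higher and 4.43% lower. Of 9 tissue Treg genes 7 were higher and 1 lower, and Bhlhe40 stood at 795 and 155 CPM and Hopx, a factor of effector T cell persistence, at 170 and 24.8 CPM. Of 12 naive genes 10 were lower. In normal lung 5.6% of 3324 genes were higher and 3.1% lower, with 3 of 4 tissue Treg genes higher and 4 of 12 naive genes lower.

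Clones were defined by identical paired receptor chains among Foxp3+ cells. In tumor lung an Areg UMI was found in 33.7% of 629 cells seen once (346 CPM), in 39.0% of 218 cells of clones of 2 to 4 cells (487 CPM), and in 28.6% of 49 cells of clones of 5 or more (203 CPM). The intervals of the shares, 30.0% to 37.5%, 32.5% to 45.8% and 16.6% to 43.3%, overlapped. Those of the CPM values, 327 to 366, 448 to 529 and 154 to 264, did not, but they treat the UMIs of 1 cell as independent. The 9 clones of 5 or more cells ranged from 0% to 80% of cells with Areg, with a median of 20%. The largest had 8 cells, 7 of them Klrg1+, and 1 with Areg. All but 1 of these clones held cells with and cells without an Areg UMI. In normal lung 145 of the Foxp3+ cells with a paired receptor were seen once, 24.1% of them with Areg. Of the 6 normal cells in clones of 2 to 4 cells, 5 had an Areg UMI (83.3%, 35.9% to 99.6%).

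Of the EGF family ligands, Areg was the only one with more than 50 UMIs in either library. Ereg, Epgn, Nrg1 and Nrg3 had no UMI in both, which allows up to 0.0940 CPM in tumor and 0.107 CPM in normal lung. Nrg2 had 46 and 46 UMIs, Egf 37 and 38, Hbegf 27 and 21, Btc 19 and 19, Nrg4 19 and 16, and Tgfa 2 and 0. The receptor gene Egfr had no UMI in both libraries, nor had Erbb4, Erbb2 had 3 and 0 UMIs, and Erbb3 had 60 and 38. Genes for releasing the ligand were present. Adam17, the main sheddase of amphiregulin, stood at 42.5 CPM in tumor and 37.8 CPM in normal Foxp3+ cells (ratio 1.13, 0.786 to 1.66), and at 43.9 CPM with and 41.7 CPM without an Areg UMI in tumor lung. Frmd8, which stabilises the sheddase complex, stood at 114 and 144 CPM in tumor and normal Foxp3+ cells, and Rhbdf2, which carries ADAM17 to the surface, at 6.33 and 6.67 CPM. Lrig1, a negative regulator of EGF receptor family proteins, stood at 25.7 and 62.2 CPM (ratio 0.412, 0.302 to 0.570). Errfi1, an intracellular inhibitor of the receptor, stood at 34.9 and 47.8 CPM, with an interval of the ratio of 0.525 to 1.04. Levels are set side by side for the same gene only.

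Other Areg-producing cell types were looked for by their markers. All 9 mast cell and basophil markers were at 0 in cells with an Areg UMI in both libraries. Of 12 myeloid markers 9 were at 0 in tumor Foxp3+ cells with Areg, and their summed level was 173 CPM there and 183 CPM in those without Areg, mostly from Cst3, at 171 and 178 CPM. In normal lung these sums were 122 and 93.8 CPM. Lung epithelium markers summed to 39.7 CPM with and 36.4 CPM without Areg in tumor Foxp3+ cells, and to 13.1 and 0 CPM in normal ones. Epcam, an epithelial adhesion gene, had 197 UMIs in tumor and 2 in normal Foxp3+ cells (ratio 14.4, 3.93 to 120), with 34.2 CPM with and 30.6 CPM without Areg in tumor lung. B cell markers summed to 18.6 and 23.5 CPM in tumor and 30.6 and 7.45 CPM in normal lung. CD8 and NK markers summed to 24.0 and 28.2 CPM in tumor and 8.75 and 26.8 CPM in normal lung, and Cd8b1 stood at 25.7 CPM in tumor and 14.4 CPM in normal Foxp3+ cells. Of the 9 group 2 innate lymphoid markers, several of which Treg cells also express, 4 were at 0 in tumor Foxp3+ cells with Areg, and the sum was 823 CPM with and 617 CPM without Areg, and 748 and 209 CPM in normal lung. Their part in the Areg values was not tested. Il13, a defining cytokine of those cells, had no UMI in any Foxp3+ cell of either library. In normal lung 5 Foxp3-negative cells had an Il13 UMI, and they held 23 Areg UMIs (537 CPM), 8.88% of that class's Areg. All 23 lay in 2 of these cells. Foxp3-negative cells with no receptor contig, where innate cells would fall, held 14 Areg UMIs in each library, at 9.45 CPM in tumor and 8.57 CPM in normal lung.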

How the data were processed

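Gene expression was measured in single sorted CD4 T cells in 2 libraries, 1 per tissue, each with a T cell receptor library. The authors deposited UMI counts of each gene in each barcode, not normalized, per the file headers. Per the submitters' processing notes the authors used Cell Ranger (version 3.1.0 in the file headers) and the mm10 build. The deposited receptor tables gave contigs with UMI and read counts.

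Cells with at least 500 genes, under 10% mitochondrial UMIs, at most 2 productive alpha chains and at most 1 beta chain were kept. No doublet caller was run, and the chain limits took its place. This left out 120 and 533 tumor and 61 and 602 normal barcodes. The kept cells held 31921001 UMIs in tumor and 28084248 UMIs in normal lung. Of the gene identifiers, 30934 were found in a RefSeq gene table of GRCm38.p6, which, with RefSeq's promoter table, supplied coordinates and sequence.

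UMIs were summed per class and library and divided by that class's total to give CPM. Intervals are 95%: exact Poisson for CPM, exact conditional on the total for ratios, and Clopper-Pearson for shares. A count of 0 is given the limit that 3 counts allow. PCR duplicates were already collapsed to UMIs. Counts were thinned to 2417 UMIs per cell, the 10th percentile of the shallower library. Pearson r used genes detected in at least 5% of tumor Foxp3+ cells, without receptor segment, immunoglobulin, ribosomal protein, mitochondrial or hemoglobin genes. The scripts for correlation, folds, intervals and thinning were tested on simulated data. Python 3.11.15, numpy 2.4.6, scipy 1.17.1, pandas 2.3.3 and matplotlib 3.10.9 were used.

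A further helper-type division is not reported here. Areg, the gates and the gene lists were chosen with earlier results of these data known. The text names Areg, the gate genes and the 15 highest and 5 lowest correlates in tumor lung. It also names the EGF family ligands and receptors with a UMI. The plan added the shedding genes with a UMI and, from each other list, its 3 highest correlates and those below -0.05. Only some of these additions are named here. Other genes named, such as Fos, Jun, Bach2 or S100a4, were chosen after their values were seen. Alternatives covered cell filters, scaling, weighting by cell, high-Areg cells, receptor pairing, other cells' markers, cycling cells and gates.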

Additional observations from a re-analysis of the deposited data

Results flagged for a closer look

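Several tumor to normal ratios of Areg lay on opposite sides of 1 in divisions of the same cells, each with an interval excluding 1. The differences between them were not tested. In Foxp3+ cells the ratio was 2.43 with Ccr7 UMIs and 0.589 without, and 0.472 with Klrg1 UMIs and 1.79 without. In Foxp3-negative cells it was 0.399 with Il1rl1 UMIs and 1.93 without. Among Foxp3-negative cells it was 0.253 with Gata3 and Il1rl1, Il13 or Il5, and 5.28 (3.09 to 9.60) with Ccl5 or Nkg7. The sides below 1 rest on 31, 11, 13 and 14 normal cells.

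The barcodes left out of the tumor library by the cell filters held 89.2 CPM of Areg (331 UMIs), close to the 86.3 CPM of the kept cells, and those of the normal library 11.9 CPM (43 UMIs).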

How the results depend on the processing

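Of 179 recomputed values with a counting interval, 142 stayed inside it, 37 moved beyond it, and 0 of those whose interval excluded 1 changed direction. All 16 recomputed counts of genes, of list members or of shared correlates, stayed within 1.5 times the main count. The cause was not tested. The 1% of cells highest in Areg was left out within each class compared. This gave a tumor to normal ratio of 10.8 over all cells and Foxp3+ to Foxp3-negative ratios of 74.1 (tumor) and 70.3 (normal). Only 2.59% of tumor and 1.82% of normal Foxp3-negative cells, and 2.41% of all normal cells, had an Areg UMI. There the 1% was a large part of the cells with Areg. The tumor Ccr7 and Klrg1 ratios within Foxp3+ cells were 0.530 and 2.08. Leaving out cells with any UMI of other cell types' markers kept 405 of 1147 tumor and 130 of 206 normal Foxp3+ cells. Of these markers Cst3 alone had a UMI in 56.0% of tumor and 32.0% of normal Foxp3+ cells. Many cells were thus left out for that gene. The tissue ratio was then 4.27 over all cells, 2.53 in Foxp3+ cells, 2.37 without Klrg1 and 2.95 without Il1rl1. In tumor lung Foxp3+ cells exceeded the rest by 33.8, and the Ccr7 and Il1rl1 ratios were 0.299 and 2.45, against 0.0502 and 6.52 in normal lung. Without cells with Mki67 or Top2a UMIs the ratio over all cells was 4.85, and the tumor Ccr7 and Il1rl1 ratios were 0.531 and 1.49. With paired receptors only, the tissue ratio was 1.47 in Foxp3+ cells, 1.38 without Klrg1 and 1.77 without Il1rl1, and the normal Foxp3+ to Foxp3-negative ratio was 27.3. With gates at 2 UMIs these were 1.33, 1.26, 1.57 and 31.4, and the tumor Ccr7 and Il1rl1 ratios were 0.717 and 2.34. Averaging over cells gave 2.26 for the tissue ratio of Foxp3-negative cells and 19.1 for Foxp3+ over Foxp3-negative in tumor lung, which was 18.0 under median of ratios scaling. Keeping cells with extra chains gave a tumor Ccr7 ratio of 0.548. Strata at normal weights gave 0.984. Thinning to 2417 and to 2000 UMIs gave shares with Areg of 26.3% and 25.6% in tumor Foxp3+ cells, 1.77% and 1.5% in tumor Foxp3-negative cells, and 1.33% and 1.14% in normal ones. The tissue ratios without Ccr7 (0.481 to 0.657) and with Klrg1 (0.396 to 0.595) were below 1 in 10 of 10 alternatives, added after the values were seen, and the one with Il1rl1 (0.691 to 1.11) was above 1 in 2. No paired analysis was possible because each tissue had 1 library. The number of cells limits the normal Foxp3+ divisions, of which the Klrg1+ one holds 11 cells and 51 Areg UMIs.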

Other observations

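Cycling Foxp3+ cells, those with an Mki67 or Top2a UMI, were described in no comparison above. They held 485 CPM of Areg in tumor lung (189 cells, 46.0% with an Areg UMI) and 496 CPM in normal lung (6 cells), a ratio of 0.976 (0.613 to 1.66). Their median depth was 5876 UMIs in tumor lung, where all Foxp3+ cells had 4725 UMIs, and the thinned share was 32.4%. Among Foxp3-negative cells the cycling ones held 38 CPM (264 cells) and 21.4 CPM (266 cells).

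Calca, which encodes the neuropeptide CGRP and was on the group 2 innate lymphoid list, stood at 13.9 CPM in tumor Foxp3+ cells with an Areg UMI and 5.02 CPM in those without, and was chosen after its values were seen. It had 52 UMIs in tumor and 3 in normal Foxp3+ cells. Ebi3, a subunit of IL-27 and IL-35, stood at 130 and 82.1 CPM in the same tumor cells, the only one of 8 suppressor mediators counted that passed the fold.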
